A study of Homo sapiens with 4 samples.

Results

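The let-7 family of microRNAs (miRNAs) was taken as 9 mature names: hsa-let-7a, hsa-let-7b, hsa-let-7c, hsa-let-7d, hsa-let-7e, hsa-let-7f, hsa-let-7g, hsa-let-7i and hsa-miR-98. They were found by exact name among the 1100 mature miRNA names of each library, leaving out star names, and 9 of 9 were present and above 0 in all 4 libraries. Small RNA was sequenced from MDA-MB-231, a human triple-negative breast cancer line, and from MCF-10A, a non-transformed human mammary epithelial line, as whole cells and as exosomes (small vesicles that cells release). MDA-MB-231 was grown in DMEM with 10% fetal bovine serum. MCF-10A was grown in DMEM/F12 with 5% horse serum, insulin, EGF, cholera toxin and hydrocortisone. Neither line carried a genetic change or a treatment of the study, so line and medium differed together and cannot be told apart. How exosomes were purified, and whether the serum was freed of its own vesicles, was not given in the sources used here. Each of the 4 groups held 1 library, so the values below have no replicate check and no test was possible.

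let-7 miRNAs are processed from short hairpins by Drosha and Dicer and are among the most conserved miRNAs of animals. In mammals they accumulate as cells differentiate, while the RNA-binding proteins LIN28A and LIN28B block the maturation of many of their precursors. Their best known targets include the RAS genes, HMGA2, MYC and LIN28 itself, and they are widely described as tumour suppressors. All members share the seed, the stretch near the 5′ end that chiefly decides which messenger RNAs are bound, so that they differ mainly outside it.

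The mature sequences are shown because several members differ by a single base, which bears on every count of reads. They were taken from RefSeq (GRCh38.p14), where 9 of 9 members matched; they are written 5′ to 3′, with bases 2 to 8, the seed, in capitals.
hsa-let-7a: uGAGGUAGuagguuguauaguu
hsa-let-7b: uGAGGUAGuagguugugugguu
hsa-let-7c: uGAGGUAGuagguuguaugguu
hsa-let-7d: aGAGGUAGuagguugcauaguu
hsa-let-7e: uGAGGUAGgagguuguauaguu
hsa-let-7f: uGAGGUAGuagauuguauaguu
hsa-let-7g: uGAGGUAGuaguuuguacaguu
hsa-let-7i: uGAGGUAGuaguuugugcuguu
hsa-miR-98: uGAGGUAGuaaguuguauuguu
The seed was GAGGUAG in 9 of 9. Among the 2370 mature names of that RefSeq source, 11 carried it, and the other two were hsa-miR-4458 and hsa-miR-4500. Counted from 1 at the 5′ end, with the base of let-7a first, let-7c differed from let-7a by A19G, let-7e by U9G and let-7f by G12A. let-7b differed by A17G and A19G, let-7d by U1A and U16C, let-7g by G12U and U18C, and miR-98 by G11A and A19U. let-7i was the farthest from let-7a, with G12U, A17G, U18C and A19U. Of the 36 pairs of members, 4 were 1 base apart (let-7a with let-7c, let-7e and let-7f, and let-7b with let-7c). The most distant pair, let-7d and let-7i, was 6 bases apart.

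The 9 members came from 12 hairpin genes. On GRCh38 (RefSeq and GENCODE 29 gave the same positions), MIRLET7A1 (chr9:94175957-94176036), MIRLET7F1 (chr9:94176347-94176433) and MIRLET7D (chr9:94178834-94178920) lay on the plus strand in an intron of the long non-coding RNA AL158152.2, with starts 390 and 2487 bases apart. MIRLET7A3 (chr22:46112749-46112822) and MIRLET7B (chr22:46113686-46113768) lay 937 bases apart in exons of MIRLET7BHG, and MIRLET7F2 (chrX:53557192-53557274) and MIR98 (chrX:53556223-53556341) lay 969 bases apart on the minus strand in an intron of HUWE1. MIRLET7A2 (chr11:122146522-122146593, minus strand) lay in an intron of MIR100HG, the transcript that also holds MIR100 and MIR125B1. MIRLET7C (chr21:16539828-16539911) lay in an intron of MIR99AHG, 739 bases after MIR99A, and MIRLET7E (chr19:51692786-51692864) lay in an intron of SPACA6, between MIR99B and MIR125A. MIRLET7G (chr3:52268278-52268361, minus strand) was in an intron of WDR82 and MIRLET7I (chr12:62603686-62603769) in an intron of the long non-coding RNA AC048341.1. let-7a has 3 hairpins and let-7f has 2, and their mature strands cannot be told apart in these values.

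Levels are given as deposited, on a scale that the values showed to be log2 of reads per 10000000 miRNA reads plus 1. Whole reads recovered from them gave depths of 1254422 to 1533546 reads for the exosome libraries, 7340453 for MDA-MB-231 cells and 10930143 for the library labelled as MCF-10A cells. The contents of that last library went against its label. Names on 9 lists of other tissues (43 names in all) held 51.3% of its reads, against 0.140% to 2.51% in the other libraries, and 43 of 43 were above 0 there, against 22 to 30. Mesenchymal miRNAs, such as miR-143 and miR-145, made up 31.8% and muscle miRNAs, such as miR-1, 12.4% of that library. The 7 epithelial markers (the miR-200 family, miR-205 and miR-203) held 4.41% of MCF-10A exosome reads and 1.01% of the library labelled as MCF-10A cells. In MDA-MB-231 they held 0.0232% of exosome and 0.0460% of cell reads, with miR-205 at 0 in the cells. Every comparison with the library labelled as MCF-10A cells rests on these contents, and their part in the results was not tested. In bulk libraries, fewer cells of a type and less RNA per cell cannot be told apart. Shares carry Wilson 95% intervals and folds exact conditional binomial 95% intervals. They cover counting error only, since reads copied by PCR are not independent molecules, and leave out the rounding of the deposited values, which is 0.347% of a value.

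let-7 was a large part of the miRNA reads of the lines. The 9 members took 16.2% (16.1 to 16.3) of the MDA-MB-231 exosome reads, 16.7% (16.7 to 16.7) of the MDA-MB-231 cell reads, 36.4% (36.3 to 36.4) in exosomes of MCF-10A and 6.07% (6.05 to 6.08) in the library labelled as MCF-10A cells. MCF-10A exosomes were the richest, and the 2 MDA-MB-231 libraries were nearly level. With the names of other tissues left out of the total, the shares were 16.6%, 16.7%, 36.4% and 12.4% in the same order. The library labelled as MCF-10A cells was still the lowest by this measure. The measure changes only the total, by the listed names. It cannot remove let-7 reads that other tissues may have added, or names of such tissues outside the lists.

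**Figure D1:**
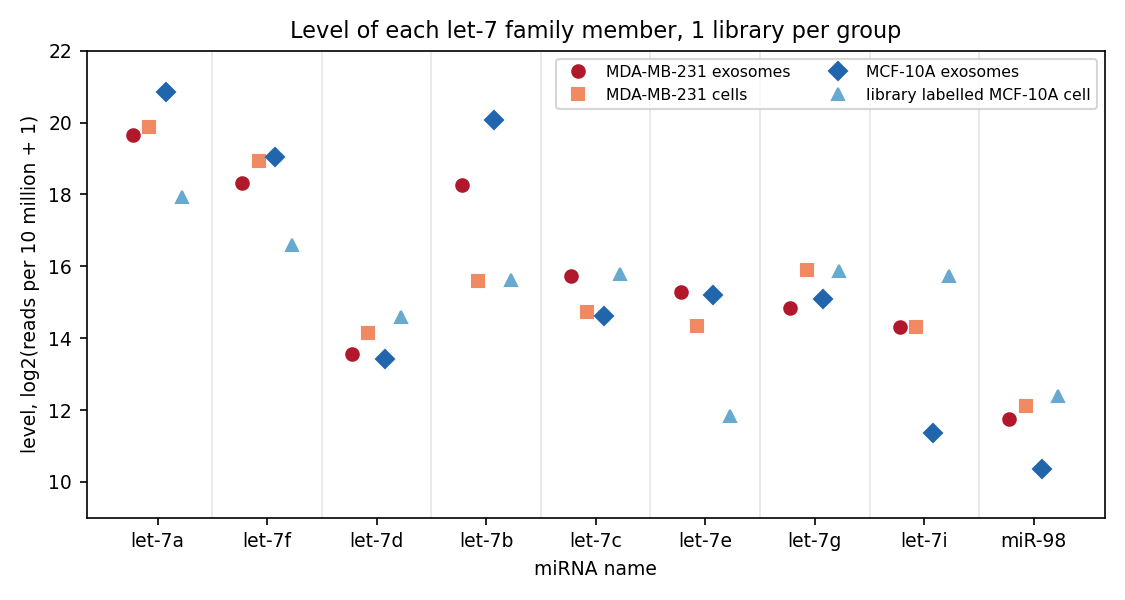
Level of each let-7 member in the 4 libraries (vertical axis, deposited log2 of reads per 10000000 plus 1; horizontal axis, member), 1 point per library. let-7a is the highest member in every library, and let-7i in MCF-10A exosomes (11.36) lies far below its other 3 points (14.30 to 15.74).

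A small number of members carried the family. let-7a, let-7b and let-7f together were 90.2% of the family's reads in exosomes and 90.9% in cells of MDA-MB-231, 96.9% in exosomes of MCF-10A and 66.1% in the library labelled as MCF-10A cells. The family was thus most even in that last library. The effective number of members (the number of equal members that would give the same evenness) was 2.96, 2.32 and 2.61 in the first 3 libraries and 4.27 in the last. The highest member exceeded the lowest by 237-fold, 221-fold, 1429-fold and 68.6-fold, and the lowest was miR-98 in all but the library labelled as MCF-10A cells, where it was let-7e. No neighbours in the order of members within a library had overlapping counting intervals. The closest were 1.04-fold to 1.08-fold apart. They were let-7e over let-7i in MDA-MB-231 cells, let-7f over let-7b in MDA-MB-231 exosomes, let-7e over let-7g in MCF-10A exosomes, and the run let-7g, let-7c, let-7i and let-7b in the library labelled as MCF-10A cells. Spread between replicates is not known, so an order that close is a description of these libraries.

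**Figure D2:**
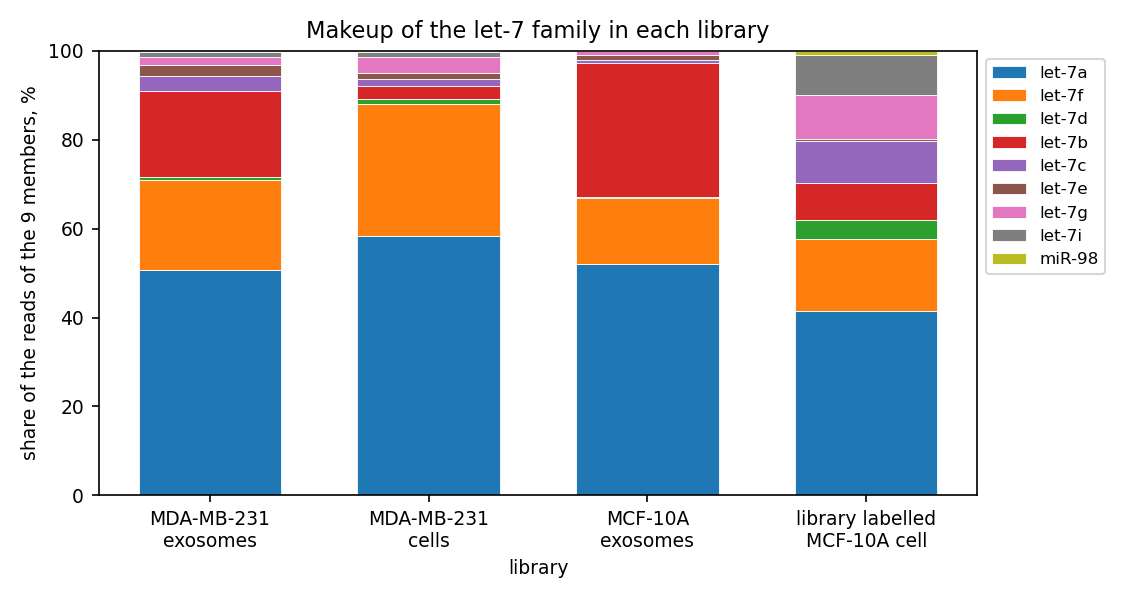
Makeup of the let-7 family: the share of each member in the family's reads (percent, stacked to the whole family) for each of the 4 libraries. let-7b is 2.96% of the family in MDA-MB-231 cells against 19.2% and 30.1% in the exosome libraries, and the members outside let-7a, let-7b and let-7f take their largest share in the library labelled as MCF-10A cells.

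The makeups of the exosome libraries were closer to each other than either was to a cell library. The share of the family that would have to be reassigned to turn one makeup into another was 12.1 percentage points between the exosomes of the 2 lines and 19.2 points between exosomes and cells of MDA-MB-231. It was 30.9 points between the cell libraries and 32.7 points between exosomes of MCF-10A and the library labelled as MCF-10A cells. Across the 9 members, the log2 levels had Pearson's r of 0.96 between the exosome libraries and 0.89 between exosomes and cells of MDA-MB-231. The same r was 0.79 between the cell libraries and 0.61 between exosomes of MCF-10A and the library labelled as MCF-10A cells. These correlations are over members that share a library and, in part, a sequence, and are given as a description.

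let-7a, made from chromosomes 9, 11 and 22, was the second most abundant miRNA in 3 libraries and the sixth in the library labelled as MCF-10A cells. Its level was 19.65 in exosomes and 19.89 in cells of MDA-MB-231, 20.85 in exosomes of MCF-10A and 17.94 in the library labelled as MCF-10A cells. It was 50.8%, 58.2%, 52.0% and 41.5% of the family in that order, the largest share everywhere. let-7f, from chromosomes 9 and X, had levels of 18.32, 18.92, 19.04 and 16.59, and was 20.2%, 29.7%, 14.8% and 16.3% of the family. Both names were lowest in the library labelled as MCF-10A cells.

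let-7d, the third member of the chromosome 9 group, had levels of 13.56, 14.15, 13.43 and 14.60 in the same order of libraries. Its highest level was thus in the library where let-7a and let-7f were lowest. let-7d reads were 1.47% (1.40 to 1.54) of let-7a reads in MDA-MB-231 exosomes and 1.87% (1.84 to 1.90) in MDA-MB-231 cells. They were 0.584% (0.554 to 0.616) in exosomes of MCF-10A and 9.88% (9.75 to 10.00) in the library labelled as MCF-10A cells. Against let-7f, which also has a hairpin there, let-7d stood at 3.69% (3.52 to 3.87) and 3.66% (3.60 to 3.73) of let-7f reads in MDA-MB-231 exosomes and cells, which do not differ beyond counting error. In MCF-10A exosomes it stood at 2.05% (1.94 to 2.16) and in the library labelled as MCF-10A cells at 25.2% (24.8 to 25.5).

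let-7b, from chromosome 22, had the widest range of any member, 4.47 on the log2 scale. Its level was 18.25 in exosomes and 15.59 in cells of MDA-MB-231, 20.06 in exosomes of MCF-10A and 15.63 in the library labelled as MCF-10A cells. It was high in both exosome libraries and low in both cell libraries, and its share of the family went from 2.96% (2.93 to 2.99) in MDA-MB-231 cells to 30.1% (29.9 to 30.2) in MCF-10A exosomes. let-7e, from chromosome 19, had levels of 15.28, 14.35, 15.19 and 11.84, also higher in exosomes than in cells. let-7c, from chromosome 21, stayed within a narrow range, with 15.72, 14.74, 14.63 and 15.80, and was highest in the library labelled as MCF-10A cells and in MDA-MB-231 exosomes.

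let-7i, from chromosome 12, was nearly as variable as let-7b but in another pattern. Its level was 14.31 in exosomes and 14.30 in cells of MDA-MB-231, 11.36 in exosomes of MCF-10A and 15.74 in the library labelled as MCF-10A cells, from 3113, 14817, 330 and 59860 reads. It was low in MCF-10A exosomes alone. let-7g, from chromosome 3, had the narrowest range, 1.06, with levels of 14.83, 15.89, 15.09 and 15.87. miR-98, from the X chromosome, was the rarest member by its mean, with 11.76, 12.10, 10.37 and 12.38. let-7f, which shares the HUWE1 intron with it but also comes from chromosome 9, exceeded miR-98 by 94.3-fold and 113-fold in MDA-MB-231 exosomes and cells, by 407-fold in MCF-10A exosomes and by 18.5-fold in the library labelled as MCF-10A cells.

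Between exosomes, MDA-MB-231 held less of the family than those of MCF-10A did, and the direction differed among members. The family was 2.24-fold lower (2.23 to 2.26) in MDA-MB-231 exosomes, carried by let-7b at 3.51-fold lower (3.47 to 3.55), let-7a at 2.30-fold lower (2.28 to 2.31) and let-7f at 1.65-fold lower (1.63 to 1.67). let-7i was 7.72-fold higher (6.89 to 8.67), miR-98 2.62-fold higher (2.20 to 3.14) and let-7c 2.13-fold higher (2.04 to 2.22) in MDA-MB-231 exosomes. On the log2 scale let-7g stood at -0.26, let-7d at 0.13 and let-7e at 0.09, and the signs of let-7d and let-7e turned negative under the 3 other scalings of whole libraries (upper quartile, median of ratios and trimmed mean). At a size of 4-fold, 1 of 9 members was higher (let-7i), where 29.3% of the 505 names tested were higher, and 0 were lower, where 19% were. Under upper-quartile and median-of-ratios scaling let-7b (-2.26 and -2.05 on the log2 scale) passed 4-fold, which made 1 lower. The 29.3% and 19% of all names hold for the total scaling only. At 2-fold, 3 were higher (all names, 43.2%) and 2 lower (all names, 26.1%). By a rule on reads, which asks for 10 reads on at least one side and for a counting interval without 1, 5 were higher (all names, 50%) and 4 lower (all names, 28.7%). The median log2 difference of the 9 members was 0.09, against 0.59 over all names tested. On the deposited values, this comparison does not involve the library labelled as MCF-10A cells. The upper-quartile and median-of-ratios factors do draw on it, because their names were chosen over all 4 libraries. MDA-MB-231 exosomes did hold 2.51% of reads on the lists of other tissues, against 0.151% in MCF-10A exosomes, and its part was not tested.

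**Figure D3:**
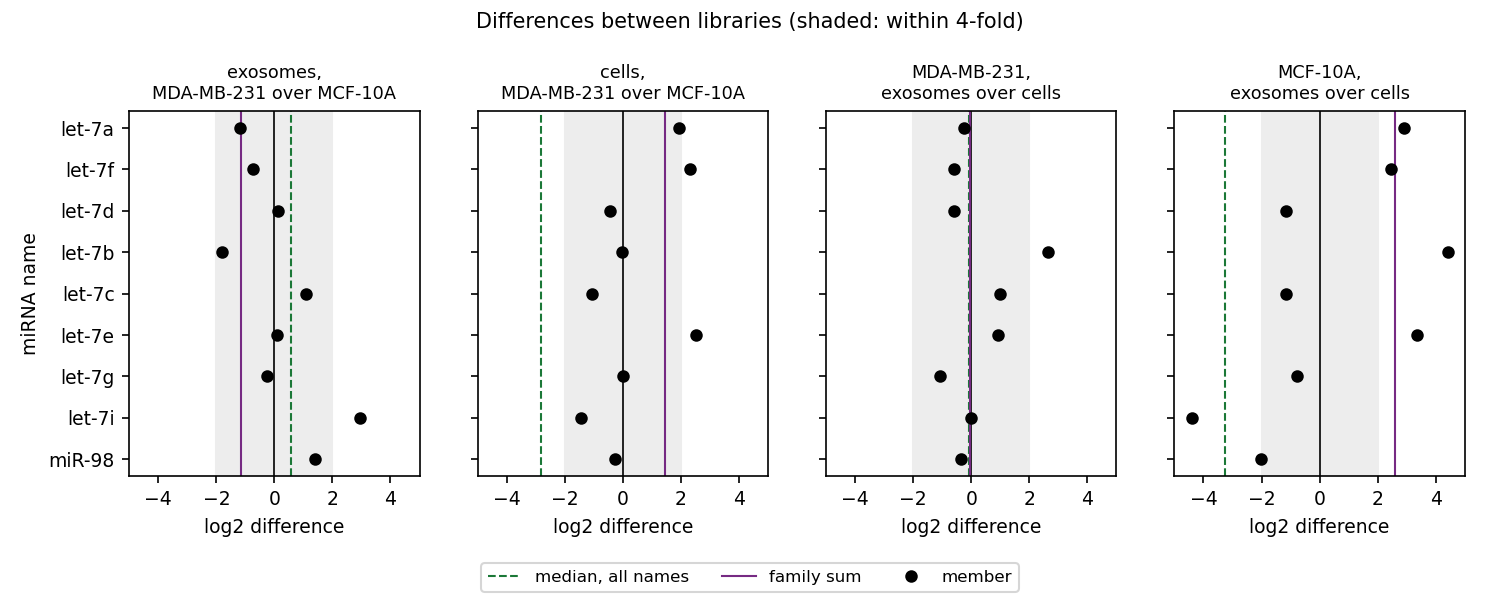
Log2 difference of each let-7 member (points) in the 4 comparisons (panels), with the sum of the family (solid line), the median of all names tested (dashed line) and the range within 4-fold (shaded). let-7b lies above the shaded range in both exosome-over-cell panels (2.66 and 4.43), and let-7i lies above it between exosomes (2.95) and below it in MCF-10A exosomes over cells (-4.38).

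Between cell libraries, the family stood 2.75-fold higher (2.74 to 2.76) in MDA-MB-231 than in the library labelled as MCF-10A cells. let-7e was 5.70-fold (5.50 to 5.90), let-7f 5.03-fold (4.99 to 5.06) and let-7a 3.86-fold (3.85 to 3.88) higher. let-7i was 2.71-fold lower (2.66 to 2.76) and let-7c 2.08-fold lower (2.05 to 2.12), and let-7d stood at -0.45 on the log2 scale; these 3 turned positive under upper-quartile scaling. let-7b at -0.04 and miR-98 at -0.28 turned positive under upper-quartile, median-of-ratios and trimmed-mean scaling, and let-7g at 0.02 became -1.01 with names of other tissues left out of the total. At 4-fold, 2 of 9 members were higher (let-7e and let-7f), where 17.3% of the 665 names tested were, and 0 were lower, where 54.3% were. At 2-fold, 3 were higher (all names, 22.7%) and 2 lower (all names, 60.8%), and by the rule on reads 4 were higher (all names, 26.5%) and 5 lower (all names, 67.8%). Among those 4, let-7g stood at 1.014-fold (1.002 to 1.026), with a lower limit closer to 1 than the rounding of 0.347% of a value. The members' median was -0.04 and that of all names -2.83. The median of all names rose to -0.43 under upper-quartile scaling, where that of the members became 2.40. The family difference of 1.46 on the log2 scale and the count of 2 members 4-fold higher both depended on the scaling. They became 3.90 and 6 members under upper-quartile scaling. Under median-of-ratios and trimmed-mean scaling they were 1.82 and 1.87, each with 3 members higher, since let-7a passed at 2.31 and 2.36. With the 51.3% of reads on lists of other tissues left out they were 0.43 and 0 members, and 2 members were then 4-fold lower. The 17.3% and 54.3% of all names hold for the total scaling only. Counts under the other scalings therefore have no share of all names beside them. The median of all names was -2.47 under median-of-ratios and -2.42 under trimmed-mean scaling, and -3.86 with names of other tissues left out.

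Within MDA-MB-231, the family total in exosomes stood near that in cells, while single members differed more. Names on the lists of other tissues held 2.51% of reads in exosomes and 0.140% in cells. Their part in the differences between these libraries was not tested. The family ratio of exosomes to cells was 0.970 (0.966 to 0.974), and its log2 difference of -0.04 became -0.30 under upper-quartile, -0.17 under trimmed-mean and 0.03 under median-of-ratios scaling. let-7b was 6.31-fold higher (6.23 to 6.40) in exosomes, let-7c 1.97-fold (1.92 to 2.02) and let-7e 1.90-fold (1.85 to 1.96). let-7g was 2.09-fold lower (2.02 to 2.15), let-7f 1.52-fold lower (1.50 to 1.53) and let-7d 1.51-fold lower (1.44 to 1.58). miR-98 and let-7a were 1.27-fold and 1.18-fold lower, and the let-7i difference of 0.01 turned negative under upper-quartile and trimmed-mean scaling. At 4-fold, 1 of 9 members was higher (let-7b; all 499 names tested, 22.2%) and 0 were lower (all names, 13.4%). At 2-fold, 1 was higher (all names, 30.7%) and 1, let-7g, was lower (all names, 29.9%). By the rule on reads 3 were higher (all names, 32.3%) and 5 lower (all names, 36.3%). The median of the members was -0.24 and that of all names -0.09. Depth differed here too, with 1533546 reads and 508 names above 0 in exosomes, and 7340453 reads and 566 names in cells. The part of depth in the values of all names was not tested.

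Within MCF-10A, the family was 5.99-fold higher (5.97 to 6.01) in exosomes than in the library labelled as MCF-10A cells, and the members split widely. let-7b was 21.5-fold higher (21.3 to 21.8), let-7e 10.2-fold (9.77 to 10.6), let-7a 7.51-fold (7.47 to 7.55) and let-7f 5.46-fold (5.41 to 5.51). let-7i was 20.8-fold lower (18.7 to 23.3) in exosomes. Its log2 difference of -4.38 kept its sign under every scaling tried but not its size. It was -1.75, short of 4-fold, under upper-quartile scaling, -3.70 and -3.91 under median-of-ratios and trimmed-mean scaling, and -5.41 with names of other tissues left out. miR-98 was 4.03-fold lower (3.45 to 4.73), let-7c and let-7d were each 2.25-fold lower and let-7g 1.72-fold lower, but these 4 turned higher under upper-quartile scaling. At 4-fold, 4 of 9 members were higher (let-7a, let-7b, let-7e and let-7f), where 15.4% of the 661 names tested were, and 2 lower (let-7i and miR-98), where 57.2% were. The count of lower members was 0 under upper-quartile scaling and 1 (let-7i) under median-of-ratios and trimmed-mean scaling. At 2-fold, 4 were higher (all names, 21%) and 4 lower (all names, 65.1%), and by the rule on reads 4 were higher (all names, 18.9%) and 5 lower (all names, 62.2%). The members' median was -0.78 and that of all names -3.27, which upper-quartile scaling moved to -0.68 while the members' median became 1.85. MCF-10A exosomes had 436 names above 0 from 1254422 reads. The library labelled as MCF-10A cells had 794 from 10930143 reads. A rare name seen there can be at 0 in the shallower exosome library through depth alone and still count as lower. All 9 members were above 0 in both. The part of depth in the shares and median of all names was not tested. With names of other tissues left out of the totals, the family difference of 2.58 on the log2 scale became 1.55, with 2 members 4-fold higher and 4 lower. It was 5.21 under upper-quartile, 3.26 under median-of-ratios and 3.05 under trimmed-mean scaling, each with 4 members higher. The 15.4% and 57.2% of all names hold for the total scaling only, so counts under the other scalings have no such share beside them. The median of all names was -4.30 with names of other tissues left out. It was -2.62 under median-of-ratios and -2.82 under trimmed-mean scaling.

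The 4 comparisons share libraries, so they are not independent of each other. let-7b was higher in exosomes than in cells in both lines (2.66 and 4.43 on the log2 scale) and let-7e likewise (0.93 and 3.35), and both kept that direction under each scaling tried. The MCF-10A values rest on the library labelled as MCF-10A cells, with 51.3% of its reads on lists of other tissues. let-7i stood at 0.01 in MDA-MB-231, a sign that turns under upper-quartile and trimmed-mean scaling, and at -4.38 in MCF-10A.

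Members that share bases outside the seed did not all share a pattern. let-7b and let-7c, which carry A19G, together made 22.6% of the family in exosomes and 4.60% in cells of MDA-MB-231, 30.8% in exosomes of MCF-10A and 17.8% in the library labelled as MCF-10A cells. let-7i and miR-98, which carry A19U, made 1.47%, 1.47%, 0.109% and 9.91%. The first pair was therefore lowest in MDA-MB-231 cells and the second pair in MCF-10A exosomes. The sum of the first pair mostly followed let-7b, at 19.2%, 2.96%, 30.1% and 8.36% of the family. let-7c alone was 3.33%, 1.64%, 0.698% and 9.41%, lowest in MCF-10A exosomes, so this pair did not share a pattern. Across the 9 members, G plus C content had r of 0.73 (rho 0.74) with the exosome-over-cell difference in MDA-MB-231 and of 0.14 (rho 0.25) in MCF-10A. It had r of -0.07 with the difference between exosomes and of -0.34 with that between cell libraries. Each is a description of 9 members that share most of their bases.

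Names 1 base apart could exchange reads through a sequencing error or a lenient alignment, and how reads were assigned to names was not given in the sources used here. Among the closest names, let-7c reads were 6.56% of let-7a reads in exosomes and 2.82% in cells of MDA-MB-231, 1.34% in exosomes of MCF-10A and 22.7% in the library labelled as MCF-10A cells. let-7e reads were 4.84%, 2.15%, 1.98% and 1.46% of let-7a reads. Neither ratio was the same in all libraries. let-7c reads were 17.3%, 55.5%, 2.32% and 113% of let-7b reads. Taken as 1 group, let-7a, let-7b, let-7c, let-7e and let-7f made 96.0%, 93.8%, 98.6% and 76.1% of the family. The part of misassigned reads in the low members was not tested.

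The strand opposite the mature one, the passenger strand, carries a star in these names and tells some hairpins apart. The most abundant passenger strands are shown, since they differ between the hairpins of let-7a, again from RefSeq, 5′ to 3′, with bases 2 to 8 in capitals.
hsa-let-7d*: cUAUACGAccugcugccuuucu
hsa-let-7i*: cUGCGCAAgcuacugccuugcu
hsa-let-7a*: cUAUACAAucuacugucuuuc
hsa-let-7a-2*: cUGUACAGccuccuagcuuucc
hsa-let-7b*: cUAUACAAccuacugccuuccc
Of 11 passenger names listed, 10 were found in the values. They held 277 reads in exosomes and 1471 in cells of MDA-MB-231, 255 in exosomes of MCF-10A and 7867 in the library labelled as MCF-10A cells. As a share of mature and passenger reads together these were 0.111% (0.0990 to 0.125), 0.120% (0.114 to 0.126), 0.0559% (0.0494 to 0.0632) and 1.17% (1.15 to 1.20). The library labelled as MCF-10A cells thus held the highest share, and MCF-10A exosomes the lowest. let-7d* alone was 73.3%, 58.3%, 71.4% and 55.0% of the passenger reads.

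**Figure D4:**
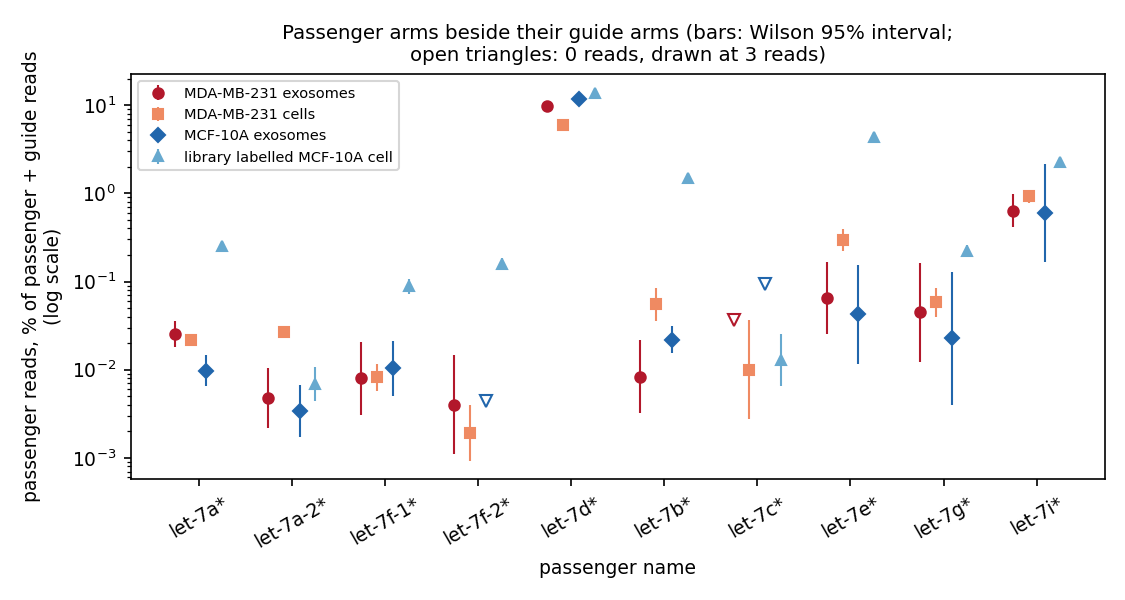
Passenger reads as a percent of mature plus passenger reads of each let-7 member (log axis, percent), by library, with Wilson 95% intervals and open triangles for 0 reads, drawn at the limit that 3 reads set. let-7d* lies between 6.03% and 13.7% in the 4 libraries, above the other passenger strands in each.

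let-7d* reached 9.88% (8.67 to 11.2) of the reads of its hairpin's arms in exosomes and 6.03% (5.65 to 6.43) in cells of MDA-MB-231, 11.6% (10.1 to 13.3) in exosomes of MCF-10A and 13.7% (13.4 to 14.1) in the library labelled as MCF-10A cells. Its level was 10.37, 10.19, 10.50 and 11.95, so that, unlike let-7d, it was not lower in exosomes of MDA-MB-231 than in its cells, at 1.13-fold (0.968 to 1.32), an interval that includes no difference. let-7b* had 4, 20, 30 and 836 reads. Its ratio of exosomes to cells was 0.957 (0.238 to 2.86) in MDA-MB-231, where let-7b was 6.31-fold higher, and 0.313 (0.210 to 0.450) in MCF-10A, where let-7b was 21.5-fold higher. Neither interval for let-7b* reached the fold of its mature strand. let-7a* had 32, 155, 23 and 698 reads, with a ratio of exosomes to cells of 0.988 (0.653 to 1.45) in MDA-MB-231 and 0.287 (0.181 to 0.434) in MCF-10A. let-7i* had 20, 139, 2 and 1387 reads, lowest in MCF-10A exosomes as let-7i was, and was 8.18-fold higher (1.99 to 72.2) in exosomes of MDA-MB-231 than in those of MCF-10A.

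let-7a-2* comes from MIRLET7A2, in the MIR100HG intron, while let-7a* is the name for the other let-7a hairpins. let-7a-2* was 15.8% (7.44 to 30.4) of the reads of these 2 names in exosomes and 54.9% (49.7 to 60.1) in cells of MDA-MB-231, 25.8% (13.7 to 43.2) in exosomes of MCF-10A and 2.65% (1.70 to 4.10) in the library labelled as MCF-10A cells. MDA-MB-231 cells held the highest share, and their let-7a-2* was 14.8-fold higher (9.23 to 25.2) than in the library labelled as MCF-10A cells. let-7f-2* from the X chromosome had 2, 7, 0 and 171 reads beside 4, 30, 7 and 95 of let-7f-1* from chromosome 9; this pair was chosen after its values were seen. The 0 of MCF-10A exosomes allows 3 reads of let-7f-2*, or 42.9% of the 7 reads of let-7f-1*. At 4-fold, 2 of 9 passenger names tested were higher (all names, 29.3%) and 1 lower (all names, 19%) between exosomes, and 1 of the higher rested on 2 against 0 reads. Between cell libraries 1 was higher (all names, 17.3%) and 3 lower (all names, 54.3%). Over cells, MDA-MB-231 exosomes had 0 higher (all names, 22.2%) and 1 lower (all names, 13.4%), and MCF-10A exosomes had 0 higher (all names, 15.4%) and 4 lower (all names, 57.2%). Their median differences were 0.18, -1.76, -0.53 and -1.79 in that order. The 4 that were lower in MCF-10A exosomes (let-7e*, let-7f-2*, let-7g* and let-7i*) rested on 2, 0, 1 and 2 exosome reads. The intervals of let-7e* (2.85 to 86.9-fold lower) and let-7g* (2.94 to 662-fold lower) reached below 4-fold.

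The 5 names that share primary transcripts with let-7 hairpins belong to the miR-99/100 and miR-125 families. Between exosomes 1 of 5 was 4-fold higher in MDA-MB-231 (miR-99a, 4.07-fold, 3.29 to 5.08) and 0 were lower, where 29.3% and 19% of all names were. Between cell libraries 2 were higher (miR-100, 7.84-fold, and miR-99b, 6.82-fold) and 1 lower (miR-99a, 37.0-fold), where 17.3% and 54.3% of all names were. In MDA-MB-231 exosomes over cells 0 passed 4-fold either way, where 22.2% and 13.4% of all names did. In MCF-10A exosomes over cells 2 were higher (miR-100, 7.67-fold, and miR-99b, 6.41-fold) and 2 lower (miR-99a, 165-fold, and miR-125b, 4.20-fold), where 15.4% and 57.2% of all names were. let-7e and miR-99b, whose hairpins start 174 bases apart, kept a ratio of reads between 0.188 and 0.359 in all 4 libraries (0.272, 0.188, 0.359 and 0.225). The ratio of let-7e to miR-125a-5p, from the same intron, was 2.71, 2.11 and 2.06 in the first 3 libraries and 0.204 in the library labelled as MCF-10A cells. The ratio of let-7c to miR-99a was 16.1, 7.47 and 30.9 in the first 3 libraries and 0.420 in the library labelled as MCF-10A cells. That library held 148420 reads of miR-99a, against 103 to 2692 in the others.

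Likeness to the family was measured over the 4 libraries as the root mean square difference between log2 levels, each centred on its own mean. Of 200 names compared, miR-30d was nearest to the family sum (0.40), with levels of 17.76, 17.67, 17.94 and 15.70. It was followed by miR-452 (0.52), miR-28-3p (0.53), miR-92a (0.54) and miR-548d-5p (0.55). Among the members, let-7a lay nearest to the family sum (0.18) and let-7i farthest (2.48). let-7a itself made up 41.5% to 58.2% of that sum, so its nearness was largely built in. The nearest pairs were let-7d with let-7g (0.22), let-7a with let-7f (0.30) and let-7d with miR-98 (0.47), and the most distant pair was let-7b with let-7i (3.36).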

How the data were processed

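Small RNA was sequenced in 4 libraries, 1 per group. Per the labels' protocols, RNA was extracted with TRIZOL (cells) or TRIZOL LS (exosomes), RNAs of 17 to 52 nt were selected, and libraries ligated through the 5′ monophosphate were run on the Genome Analyzer IIx. The submitters' processing notes name Novoalign, edgeR and hg18 without a version or role; the assignment of reads to names and the miRBase release are not given in the sources used here. Values deposited by the authors are on a log2 scale with 2 decimals. From the values, they were read as log2 of reads per 10000000 plus 1 (pseudocount 1), and low values were whole multiples of 1 read. Of values above 0, 40.1% to 65.7% resolved single reads (rounding left less than 0.5 reads of play), of which 100% held a whole number; larger reads are known to 0.005 log2. A count of 0 allows 3 reads, or 2.74 to 23.9 per 10000000. The design had assumed counts; because the unit was log2, levels and differences are those of the deposited values, and intervals and folds use the recovered reads. A comparison took in the names that reached 10 reads per 10000000 in either library. The rule on reads took in 342 names between exosomes, 661 between cells, 427 in MDA-MB-231 and 629 in MCF-10A. Shares of all names at 4-fold and 2-fold therefore include names with fewer than 10 reads. These shares and the medians of all names also include names at 0 in 1 library, which a lower depth makes more likely. Scalings were the total, the upper quartile (percentile 75), the median of ratios and a trimmed mean (TMM; trims of 30% and 5%). Calculations used Python 3.11.15, numpy 2.4.6, pandas 2.3.3 and scipy 1.17.1, and were tested on simulated data. All members were named in every library, with up to 5 passenger strands and partners by mean level, the 5 names most like the family among those with at least 50 reads per 10000000 in every library, and the members with the highest and lowest folds. The members and lists were chosen with earlier results of these data known. Coordinates and sequences are from RefSeq and GENCODE 29 on GRCh38; the values carry none.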

Additional observations from a re-analysis of the deposited data

Results flagged for a closer look

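For some members the 2 lines, or the 2 fractions, moved in opposite directions. With 1 library per group these differences between differences were not tested. Each is given as MDA-MB-231 minus MCF-10A in the log2 difference of exosomes over cells, which equals exosomes minus cells in the log2 difference of MDA-MB-231 over MCF-10A, and every one rests in part on the library labelled as MCF-10A cells, with 51.3% of its reads on lists of other tissues.

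let-7i differed by 4.39, from 0.01 in MDA-MB-231 and -4.38 in MCF-10A (exosomes over cells), and from 2.95 in exosomes and -1.44 in cells (MDA-MB-231 over MCF-10A). The 0.01 was a ratio of 1.01 (0.967 to 1.05), which includes no difference, and it turned negative under upper-quartile and trimmed-mean scaling. let-7c differed by 2.15, from 0.98 and -1.17 in the first form and from 1.09 and -1.06 in the second. let-7a differed by -3.15, from -0.24 and 2.91 and from -1.20 and 1.95. let-7f differed by -3.05, from -0.60 and 2.45 and from -0.72 and 2.33. The family sum differed by -2.63, from -0.04 and 2.58 and from -1.17 and 1.46. Its -0.04 in MDA-MB-231 became 0.03 under median-of-ratios scaling.

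On the total scaling, a further 3 members were opposite only in MDA-MB-231 over MCF-10A. miR-98 differed by 1.67 (1.39 in exosomes and -0.28 in cells), let-7d by 0.58 (0.13 and -0.45) and let-7g by -0.28 (-0.26 and 0.02). The signs of let-7d in exosomes and of miR-98 in cells turned under upper-quartile, median-of-ratios and trimmed-mean scaling, and that of let-7g in cells turned with names of other tissues left out of the total. Under upper-quartile scaling the negative values of let-7c, let-7d and let-7i between cell libraries, and of let-7c in MCF-10A exosomes over cells, also turned positive. On the total scaling let-7b (-1.81 in exosomes and -0.04 in cells) and let-7e (0.09 and 2.51) were not opposite in MDA-MB-231 over MCF-10A. Under upper-quartile, median-of-ratios and trimmed-mean scaling both became opposite, negative in exosomes and positive in cells.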

How the results depend on the processing

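No paired analysis was possible because each group held 1 library, and for the same reason no replicate could be left out. The family's share of reads, without names of other tissues, was 16.6% in MDA-MB-231 exosomes and 12.4% in the library labelled as MCF-10A cells; without miR-21 it was 26.0%, 28.0%, 52.3% and 6.58% (MDA-MB-231 exosomes and cells, MCF-10A exosomes, library labelled as MCF-10A cells); without miR-98 it was 16.66% in MDA-MB-231 cells and 6.01% in the library labelled as MCF-10A cells. The family's log2 difference under upper-quartile, median-of-ratios and TMM scaling and without other tissues was -1.62, -1.41, -1.35 and -1.13 between exosomes, 3.90, 1.82, 1.87 and 0.43 between cells, -0.30, 0.0328, -0.17 and -0.00766 in MDA-MB-231 exosomes over cells, and 5.21, 3.26, 3.05 and 1.55 in MCF-10A. Counts of members called at 4-fold became, at 2-fold and by reads, 3 and 5 higher and 2 and 4 lower between exosomes, 2 and 5 lower and (by reads) 4 higher between cells, 1 and 5 lower and (by reads) 3 higher in MDA-MB-231, and 4 and 5 lower in MCF-10A. Upper-quartile scaling gave 1 lower between exosomes, 6 higher between cells and 0 lower in MCF-10A; median of ratios gave 1 lower between exosomes, and it and TMM 1 lower in MCF-10A. Without other tissues the counts were 0 higher and 2 lower between cells, and 2 higher and 4 lower in MCF-10A. The shares of all names given above hold for the total scaling only, so counts under other scalings stand without such a share. miR-98 in MCF-10A exosomes over cells reversed to 0.62 under upper-quartile scaling; the cause was not tested. Each scaling shifts all members of a comparison alike. Depth limits the exosome libraries most, where a count of 0 allows up to 23.9 reads per 10000000, and passenger strands there rest on 0 to 203 reads.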

Other observations

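miR-202-3p, whose RefSeq sequence is aGAGGUAUagggcaugggaa (bases 2 to 8 in capitals), has 1 difference from the let-7 seed. The name miR-202 had 0 reads in both MDA-MB-231 libraries and in exosomes of MCF-10A, and 398 in the library labelled as MCF-10A cells, a level of 8.51. miR-202* had 0, 2, 0 and 16262 reads, with a level of 13.86 in the library labelled as MCF-10A cells. Both names were therefore nearly confined to that library, where 51.3% of reads lay on lists of other tissues. Their part in that content was not tested.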
